A study of Mus musculus with 36 samples.

Results

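The Phf11-Setdb2 locus of mouse chromosome 14 and the Sp100 family cluster of chromosome 1 were examined in bone marrow-derived macrophages (BMDMs). The genes are Phf11a, Phf11b, Phf11c, Phf11d, Setdb2, Sp100, Sp110 and Sp140, which are 8 of the 54532 genes in the count table. They were matched by gene symbol. The group was chosen by its response, since Phf11a, Sp110 and Setdb2 stood out in fits of LPS and of its interaction with CCM. The LPS differences and the interaction are therefore given as descriptions, without a test.

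PHF11 proteins carry a PHD finger, a fold that in many proteins reads histone tails, and human PHF11 is known as a regulator of Th1 cytokine genes. SETDB2 belongs to the SET-domain family of histone H3 lysine 9 methyltransferases, which mark silent chromatin, and it is itself induced by interferon in macrophages. SP100, SP110 and SP140 share a SAND domain, and SP110 and SP140 also carry a PHD finger and a bromodomain. SP100 is a founding component of PML nuclear bodies, the dot-like nuclear structures linked to antiviral defence. Mouse Sp110, also called Ipr1, and Sp140 are known for their part in the resistance of macrophages to intracellular bacteria.

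BMDMs were grown for 7 days with MCSF from female C57BL/6 mice aged 13 to 17 weeks. KO mice carried floxed Bmal1 alleles and a Cre driven by LysM, which is active in myeloid cells (n = 6 replicates), and WT mice were Bmal1 flox/flox littermates without Cre (n = 3 replicates), so that all of the mice carried the floxed alleles. For 6 h the cells were held in vehicle (DMSO), in CCM (100 µM), in LPS (100 nM) or in both agents, which gave 36 libraries in 8 groups. CCM is a small molecule made to bind BMAL1, the core clock transcription factor, and LPS is a component of the bacterial outer membrane that is sensed by TLR4. A level in CPM is the number of read pairs on the gene for every 1000000 counted, with libraries scaled by the TMM method.

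The libraries held 13469262 to 28288923 counted read pairs, with a median of 19951421. The 8 macrophage markers examined, among them Csf1r and Lyz2, were detected in every library and summed to 11586 to 20110 CPM. Sums of the B cell, T cell, dendritic cell and erythroid markers were at most 10.9 CPM. KO replicate 6 stood apart in all 4 treatments. The 6 neutrophil markers summed to 258 to 975 CPM over all libraries, and to 891 to 975 CPM in this replicate. Over all libraries S100a9 reached 500 CPM and S100a8 424 CPM. Camp, Mpo and Elane reached 52.1, 35.7 and 26.1 CPM, and Ly6g only 0.58 CPM. The fibroblast markers summed to 296 to 1660 CPM. Of the 15720 genes kept by the filter on low counts, 24.1% had their lowest KO level in replicate 6 in every treatment, as did 2 of the 8 genes, Setdb2 and Sp100. For the other KO replicates that share was at most 1.28%. Counts on Arntl, the gene of BMAL1, were 7.28 to 12.9 CPM in WT and 2.13 to 10.7 CPM in KO libraries. Of the 24 KO libraries, 12 lay inside the WT range, among them all 4 labelled KO replicate 2, at 7.74 to 10.7 CPM, and 8 of the 20 others. These counts also cover exons outside the floxed part of the gene.

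On build mm10 (GRCm38) the Phf11-Setdb2 genes lie in a row on the minus strand of chromosome 14. They are Phf11a (chr14:59276913-59297522), Phf11b (chr14:59320964-59341351), Phf11d (chr14:59347407-59365470), Phf11c (chr14:59380833-59395381) and Setdb2 (chr14:59402009-59440884), which together span 163972 bases. The Sp genes lie within 133100 bases of chromosome 1. Sp110 (chr1:85576899-85598817, minus strand) and Sp140 (chr1:85600378-85645037, plus strand) start head to head, 1560 bases apart, and Sp100 (chr1:85649988-85709998, plus strand) follows Sp140 after 4950 bases. All 8 are annotated as protein coding.

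The 250 bases in front of the RefSeq transcript starts (GRCm38.p6) are shown for Phf11a and Phf11b, which are nearly the same sequence, and for Setdb2, the member with the smallest LPS difference in WT. Each runs 5′ to 3′ along the gene. Capitals mark the letters GAAANNGAA, which lie at the core of the interferon-stimulated response element.
Phf11a, chr14:59297523-59297772, minus strand: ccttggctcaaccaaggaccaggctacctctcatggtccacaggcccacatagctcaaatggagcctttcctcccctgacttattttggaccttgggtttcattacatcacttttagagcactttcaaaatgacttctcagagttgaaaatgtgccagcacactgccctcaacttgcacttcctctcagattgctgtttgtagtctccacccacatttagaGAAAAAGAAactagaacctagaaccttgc
Phf11b, chr14:59341331-59341580, minus strand: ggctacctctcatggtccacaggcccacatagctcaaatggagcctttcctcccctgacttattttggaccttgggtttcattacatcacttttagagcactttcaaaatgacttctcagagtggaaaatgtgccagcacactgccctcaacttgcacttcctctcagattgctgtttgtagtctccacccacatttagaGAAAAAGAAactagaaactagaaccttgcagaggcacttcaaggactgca
Setdb2, chr14:59440881-59441130, minus strand: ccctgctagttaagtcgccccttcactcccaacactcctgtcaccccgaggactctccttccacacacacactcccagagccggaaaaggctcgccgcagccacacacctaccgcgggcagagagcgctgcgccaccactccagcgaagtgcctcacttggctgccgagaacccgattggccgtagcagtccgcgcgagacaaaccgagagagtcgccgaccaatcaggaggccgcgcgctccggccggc

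Shifted by 21 bases, the Phf11a and Phf11b sequences were identical at 227 of 229 positions (99.1%). No other pair of promoters from different members passed 41.7% in such an ungapped comparison. The matched letters begin 29 bases in front of the start of Phf11a and 50 bases in front of that of Phf11b. GAAANNGAA, searched on both strands, was found in 2 of the 10 promoters listed for the 8 genes and in 7.13% of all 32851 promoters of the same length. TTCNNNGAA (in 7.02% of all promoters), the E-box CACGTG (6.02%) and the NF-kappaB motif (7.25%) were found in 0 of the 10. The Setdb2 sequence held 65.6% G and C bases, against 46% for Phf11a.

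Each of the 8 genes was higher with LPS. In WT, the LPS libraries lay above the vehicle libraries for 8 of 8 genes, where 31.4% of all genes kept did so. In KO this was again 8 of 8, against 14.6% of all genes. Since this contrast chose the group, nothing is read from these shares. The median log2 difference of the 8 genes was 3.51 in WT and 3.39 in KO, and that of all genes was -0.06 and -0.05.

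**Figure D1:**
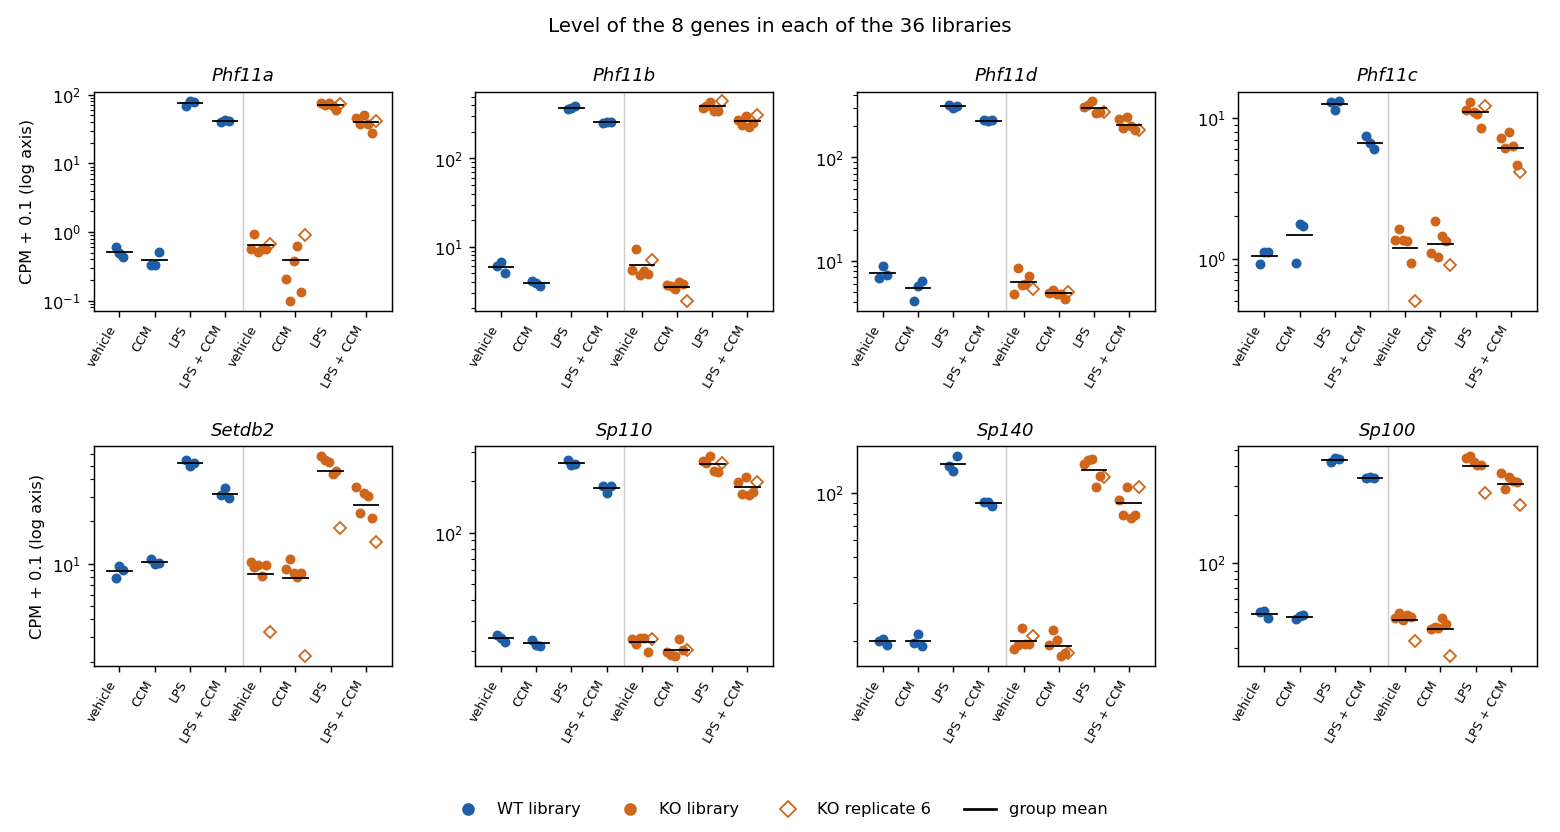
Each panel shows 1 gene, with the level in CPM plus 0.1 on a log axis for every library (points) and the mean of each of the 8 groups (lines), WT in blue and KO in orange, with KO replicate 6 as open diamonds. In each panel the LPS libraries lie above the vehicle libraries, the LPS with CCM means lie under the LPS means, and the diamonds lie under the other KO libraries for Setdb2 and Sp100.

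Phf11a went from near silence to a clear signal. Its WT vehicle libraries had 0.515, 0.397 and 0.328 CPM (9 to 14 counts each) and its WT LPS libraries 69.4, 79.6 and 77.5 CPM. The difference was 7.23 on the log2 CPM scale (SE 0.16, prior count 2), the 56th highest among 15720 genes. Phf11a was chosen partly by LPS fits, so nothing is read from this rank. KO levels were 0.42 to 0.846 CPM with vehicle (median 0.465) and 59.5 to 76.1 CPM with LPS (median 72.8).

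Phf11b reached the highest level per length of the 8 genes. Its WT libraries had 5.92, 6.62 and 4.84 CPM with vehicle and 366, 375 and 392 CPM with LPS, a log2 difference of 6.01 (SE 0.13). Phf11d had 6.73, 8.92 and 7.20 CPM with vehicle and 318, 303 and 315 CPM with LPS in WT (log2 difference 5.35, SE 0.12). Phf11c had the lowest level of the Phf11 genes with LPS. It had 0.809, 1.02 and 1.02 CPM (vehicle) and 12.9, 11.4 and 13.04 CPM (LPS) in WT, a log2 difference of 3.59 (SE 0.12). Thus the 4 Phf11 genes differed widely in the size of the LPS difference, from 13.1-fold for Phf11c to 183-fold for Phf11a in the ratio of mean CPM.

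Setdb2, next to the Phf11 genes, had 7.75, 9.54 and 8.84 CPM with vehicle and 55.0, 49.6 and 52.4 CPM with LPS in WT. Its log2 difference of 2.58 (SE 0.097) was the smallest of the 8 in WT. In KO, LPS gave Setdb2 17.8 to 58.0 CPM (median 49.2) over 3.14 to 10.1 CPM with vehicle (median 9.52), and the lowest value of each group was that of replicate 6. Among the 5 genes of chromosome 14, the LPS difference in WT was smaller from gene to gene in the order of their positions, from Phf11a through Phf11b, Phf11d and Phf11c to Setdb2.

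The Sp genes were already expressed without LPS. Sp100 went from 49.8, 50.5 and 45.4 CPM to 427, 446 and 440 CPM in WT, a log2 difference of 3.17 (SE 0.051). Sp110 had 24.7, 23.9 and 22.5 CPM with vehicle and 268, 251 and 254 CPM with LPS (3.44, SE 0.05). Sp140 had 19.8, 20.3 and 19.0 CPM with vehicle and 135, 127 and 149 CPM with LPS (2.79, SE 0.074). The Sp genes had similar ratios of mean CPM, 9.01 for Sp100, 10.9 for Sp110 and 6.96 for Sp140. Between CCM libraries and those with both agents, the median log2 difference of the 8 genes was 2.95 in WT and 3.09 in KO, and in WT it ran from 1.62 (SE 0.08) for Setdb2 to 6.78 (SE 0.22) for Phf11a.

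Levels of different genes were compared per kilobase of gene length (RPKM, with the lengths of the deposited table). In WT with vehicle the order was Sp100 at 6.43 ± 0.36, Sp140 at 5.92 ± 0.20, Phf11b at 4.89 ± 0.76, Sp110 at 3.49 ± 0.17, Setdb2 at 2.15 ± 0.22, Phf11d at 1.69 ± 0.26, Phf11a at 0.305 ± 0.069 and Phf11c at 0.274 ± 0.035 RPKM (SD, n = 3). With LPS, Phf11b led at 319 ± 11.1 RPKM. Phf11d at 69.4 ± 1.82, Sp100 at 57.9 ± 1.30, Phf11a at 55.8 ± 3.99, Sp140 at 41.2 ± 3.44, Sp110 at 38.0 ± 1.34, Setdb2 at 12.9 ± 0.67 and Phf11c at 3.60 ± 0.27 RPKM followed. In the vehicle order the libraries of Sp100 and Sp140, of Setdb2 and Phf11d, and of Phf11a and Phf11c overlapped. In the LPS order those of Sp100 and Phf11a, and of Sp140 and Sp110, overlapped.

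In WT the LPS level of all 8 genes was lower with CCM. The LPS with CCM libraries lay under the LPS libraries for 8 of 8 genes, where 14.0% of all genes kept did so. This contrast is a part of the interaction that chose the group, so it is described only. The log2 differences ran from -0.91 (SE 0.11) for Phf11c to -0.37 (SE 0.02) for Sp100, with a median of -0.59 against 0.01 for all genes.

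Phf11a had 39.6, 43.3 and 41.7 CPM with LPS and CCM in WT, which was 55.0% of its LPS level. Phf11c had 7.32, 6.59 and 5.88 CPM, or 53.0%. Setdb2 had 30.7, 34.5 and 29.2 CPM, or 60.1%. These 3 genes kept the smallest share of their LPS level.

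Sp140 had 90.6, 90.6 and 86.8 CPM with both agents (65.2% of its LPS level) and Phf11b 252, 256 and 262 CPM (68.0%). Sp110 had 187, 171 and 187 CPM (70.6%), Phf11d 228, 223 and 228 CPM (72.5%) and Sp100 338, 341 and 336 CPM (77.4%). In bulk RNA, fewer responding cells and less RNA per cell cannot be told apart.

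The same comparison in KO macrophages was tested with edgeR's quasi-likelihood test over all genes. It is also an arm of the interactions that can be formed with LPS or with genotype, and which of these chose the group is not fully known, so its calls are no independent support for the group. The same holds for CCM without LPS in KO and for the genotype comparisons. All 8 genes had negative log2 fold changes, with a median of -0.55 against 0.00 for all genes, and 1 of the 8, Phf11a, passed an adjusted p of 0.05, where 0.112% of the 13386 genes tested did so. Phf11a was at 27.6 to 49.7 CPM with both agents (median 39.6) and at 59.5 to 76.1 CPM with LPS alone, without overlap. Its log2 fold change was -0.85 (SE 0.14, edgeR adjusted p = 0.0431).

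The other Phf11 genes did not pass. Phf11c was at 4.06 to 7.92 CPM with both agents (median 6.16) and at 8.39 to 12.9 CPM with LPS (median 11.1), with a log2 fold change of -0.90 (SE 0.18, edgeR adjusted p = 0.0824). Phf11b (log2 fold change -0.55, SE 0.12, edgeR adjusted p = 0.0984) and Phf11d (-0.54, SE 0.12, edgeR adjusted p = 0.0961) had nearly the same difference as each other. For each of these the groups did not overlap.

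Among the Sp genes, Sp110 went from 229 to 281 CPM with LPS (median 257) to 166 to 213 CPM with both agents (median 185), without overlap (log2 fold change -0.46, edgeR adjusted p = 0.127). Sp140 had a log2 fold change of -0.53 (edgeR adjusted p = 0.156) and its groups overlapped. Sp100 (-0.39, edgeR adjusted p = 0.436) and Setdb2 (-0.83, edgeR adjusted p = 0.361) overlapped as well. Their standard errors, 0.14 for Sp100 and 0.27 for Setdb2, include the low values of KO replicate 6 in both groups. In all, 5 of the 8 genes had LPS with CCM libraries wholly under the LPS libraries, where 0.636% of all genes kept did so.

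How many of the genes passed depended on the libraries included. Without KO replicate 6, all 8 passed (edgeR adjusted p of 0.0197 to 0.0462), where 1.27% of 13429 genes did so, and 7 of 8, all but Sp140, did not overlap, where 3.22% of genes did not. Setdb2 then had a log2 fold change of -0.86 (edgeR adjusted p = 0.0197) and Sp100 of -0.39 (edgeR adjusted p = 0.0448). Leaving out any 1 of the replicates 1 to 5 in its place gave 0 of 8, where at most 0.0522% of all genes passed. The edgeR adjusted p of Phf11a was then 0.0585 to 0.389. The fold changes themselves moved little, for Phf11a from -0.91 to -0.81 over the 6 fits. DESeq2 called 6 of 8 with all libraries, every gene but Setdb2 and Sp100, where it called 1.28% of 14076 genes.

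**Figure D2:**
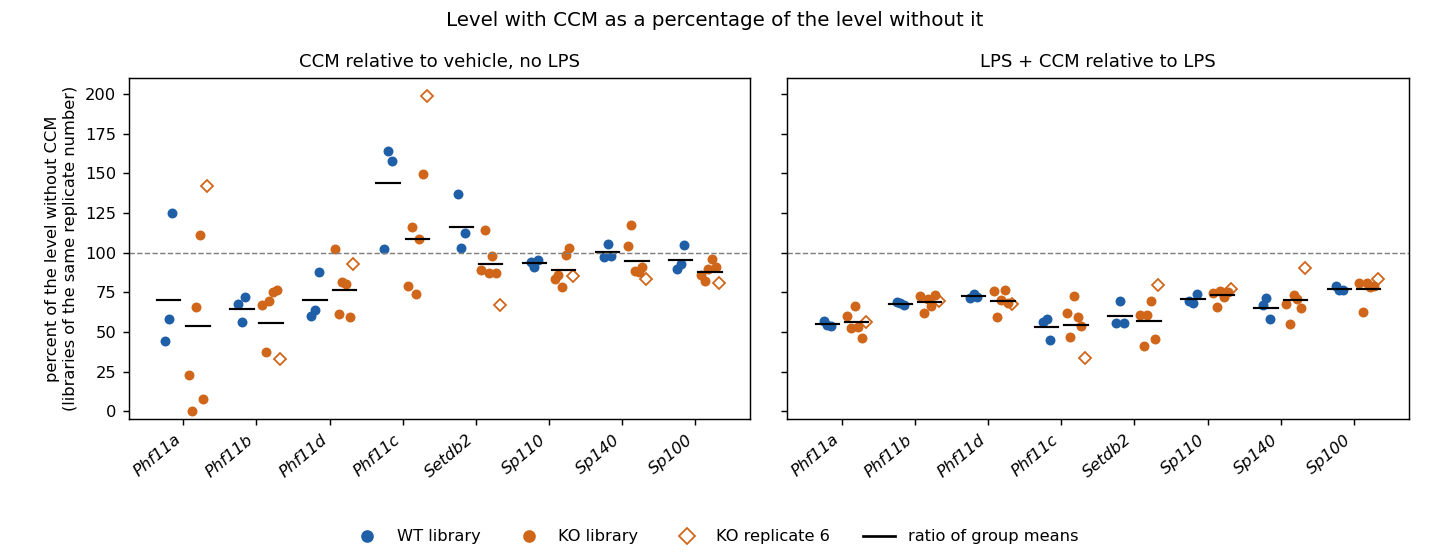
The level with CCM as a percentage of the level without it, between libraries of the same replicate number, is shown for each gene without LPS (left) and with LPS (right), WT in blue, KO in orange, KO replicate 6 as open diamonds, and the ratio of the group means as black lines. With LPS every point lies under 100%, whereas without LPS the points of Phf11b lie under 100% and those of Setdb2, Phf11c and Sp140 lie on both sides of it.

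Without LPS the 8 genes did not move together. In WT, 2 of the 8, Phf11b and Phf11d, had CCM libraries wholly under the vehicle libraries, where 6.46% of all genes kept did so. Phf11b had 3.99, 3.74 and 3.499 CPM with CCM, a log2 difference of -0.61 (SE 0.14), and Phf11d had 4.04, 5.69 and 6.34 CPM (-0.51, SE 0.23). Setdb2 lay the other way, with 10.6, 9.80 and 9.96 CPM, all above its vehicle libraries (0.22, SE 0.093), where 9.17% of all genes kept were so placed. Phf11c had 0.826, 1.66 and 1.61 CPM with CCM, which overlapped its vehicle libraries (0.44, SE 0.32). Sp100, Sp110 and Sp140 lay within 0.10 of no difference and overlapped.

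In KO without LPS, 0 of the 8 genes passed, as did 0% of the 13799 genes tested by edgeR. At an unadjusted p under 0.05 there were 2 of the 8 and 333 genes in all. Phf11b was at 2.33 to 3.85 CPM with CCM (median 3.49) and 4.62 to 9.17 CPM with vehicle (median 5.20), without overlap, and was the only one of the 8 so placed, where 0.254% of all genes kept were. Its log2 fold change was -0.83 (SE 0.19, edgeR adjusted p = 0.717). Without KO replicate 6 it still did not overlap, where 1.34% of genes did not. Fitted with a replicate block it passed (-0.78, edgeR adjusted p = 0.0345), where 3.11% of genes did so. Phf11d had -0.38 (SE 0.15, edgeR adjusted p = 0.9999).

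Phf11a was too low without LPS for its CCM difference to be measured. Its KO CCM libraries had 0 to 0.799 CPM. The library with 0 counts allows up to 3 counts, or 0.135 CPM, for counting error alone. The 95% interval of its log2 fold change ran from -2.41 to 0.44.

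The difference between the CCM effect with LPS and that without LPS varied along the Phf11-Setdb2 locus. In WT it was -1.34 (SE 0.34) for Phf11c and -0.95 (SE 0.13) for Setdb2, the 79th and 307th lowest of 15720 genes. The interaction helped to choose the group, so nothing is read from these ranks. For Phf11b and Phf11d the WT value was 0.05 (SE 0.14 and 0.23). Thus CCM went with about the same proportional difference of Phf11b and Phf11d at both levels of LPS, while in WT the differences of Setdb2 and Phf11c had opposite signs, although the Phf11c libraries without LPS overlapped. In KO without LPS the log2 fold change of Setdb2 was -0.10 (SE 0.34).

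The Sp genes lay in between, at -0.62 (SE 0.099) for Sp140, -0.41 (SE 0.074) for Sp110 and -0.31 (SE 0.058) for Sp100, and Phf11a was at -0.44 (SE 0.27). The Phf11a value rested on few counts without LPS and ran from -0.72 to -0.10 when 1 replicate was left out. The median of the 8 genes was -0.42 in WT and -0.23 in KO, against 0.01 and 0.04 for all genes. In KO, Phf11c again had the lowest value (-1.06, SE 0.34), followed by Setdb2 (-0.62, SE 0.54) and Sp140 (-0.44, SE 0.14). Phf11a and Phf11b were above 0 there, at 0.28 (SE 0.55) and 0.26 (SE 0.21), and with 1 replicate left out the Phf11a value ran from -0.14 to 0.61. Whether these values differ between the genotypes was not tested.

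**Figure D3:**
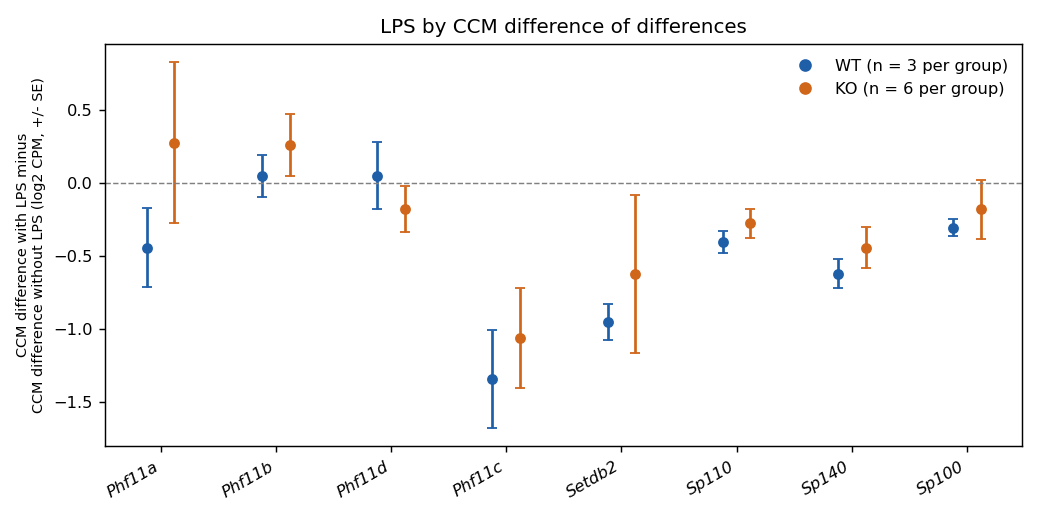
For each gene, the log2 CPM difference made by CCM with LPS minus that without LPS is plotted with its SE, WT in blue (n = 3 per group) and KO in orange (n = 6 per group). Phf11c lies lowest in both genotypes, and Phf11b and Phf11d lie near 0 in WT.

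No difference between the genotypes passed the test for these genes. With vehicle, 0 of the 8 passed between KO and WT, as did 0% of 14385 genes tested by edgeR, of which 118 had an unadjusted p under 0.05. With LPS it was 0 of 8 and 0% of 13794 genes, of which 105 had such a p. In both comparisons 0 of the 8 had an unadjusted p under 0.05. The groups overlapped for all 8 genes. The share of all genes that did so was not counted, so nothing is read from this overlap. DESeq2 also called 0 of the 8 in each, and over all genes 1 of 27030 with vehicle and 1 of 26318 with LPS.

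With LPS the log2 fold changes of KO over WT lay between -0.20 and 0.04. The 95% interval for Phf11b was -0.20 to 0.29, that for Phf11a -0.32 to 0.14, and that for Setdb2, the widest, -0.85 to 0.45. With vehicle the widest interval, that of Phf11a, was -0.33 to 1.10. Leaving out KO replicate 2, all of whose libraries lay inside the WT range of Arntl, gave 0 of 8 in both comparisons. Over all genes it gave 0 of 14284 with vehicle and 0 of 13694 with LPS.

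In KO replicate 6, Setdb2 and Sp100 lay lowest of the KO libraries in all 4 treatments, and 2 of 8 genes is near the 24.1% of all genes that did so. Its Setdb2 level was 33.4, 23.7, 34.9 and 50.4% of the mean of the other KO libraries with vehicle, CCM, LPS and LPS with CCM. Sp100 was at 63.9 to 70.9%. Phf11c was at 32.9, 63.6, 112 and 63.8%, the lowest KO level in 3 of the 4 treatments. Sp110 was at 99.5 to 108%, Phf11d at 83.3 to 105%, Phf11b at 65.6 to 121%, Sp140 at 90.7 to 123% and Phf11a at 105 to 426%. A level of at most 50.4% in every treatment, the highest value of Setdb2, was found in 10.99% of all genes kept. One of at most 70.9%, the highest value of Sp100, was found in 22.5%. The LPS to vehicle ratio of Setdb2 in replicate 6 was 5.68, inside the 4.73 to 5.85 of the other KO replicates. The neutrophil, B cell, T cell and erythroid marker sums were also the highest of the KO libraries in this replicate, in every treatment. Their part in these values was not tested.

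Genes next to the clusters were followed to place the differences. On chromosome 14, 5 of 11 annotated neighbours within 200000 bases passed the filter. Gm6904, which lies beyond Phf11a and shares stretches of sequence with Phf11b, went from 0.293 to 7.46 CPM with LPS in WT (log2 difference 4.28, SE 0.21). Rcbtb1, the next gene, had 1.31 (SE 0.09), and Cab39l, which starts 87 bases from Setdb2 on the other strand, had 0.73 (SE 0.035). Cdadc1 had -0.26 (SE 0.11). Atp8a2, whose start lies far beyond, had under 1 CPM on average in each group.

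CCM under LPS in WT gave log2 differences of -0.48 (SE 0.19) for Gm6904, -0.37 (SE 0.10) for Rcbtb1 and -0.22 (SE 0.047) for Cab39l. Cdadc1 lay the other way at 0.26 (SE 0.14), and the low Atp8a2 had -0.31 (SE 0.42). On chromosome 1, 7 of 16 neighbours passed. A630001G21Rik had an LPS difference of 1.33 (SE 0.12), Cab39 of -0.21 (SE 0.035) and Itm2c of -0.09 (SE 0.06). The others, Gm7592, Gm16094, Gm10552 and Gm17017, are a pseudogene and antisense genes with at most 3.27 CPM on average in WT. Their LPS differences were 3.25 (SE 0.29), 4.13 (SE 0.13), 2.56 (SE 0.28) and 1.89 (SE 0.37). Gm16094 lies between Sp110 and Sp140. For CCM under LPS in WT the 4 had -0.84 (SE 0.69), -0.78 (SE 0.044), -0.58 (SE 0.68) and -0.63 (SE 0.17). A630001G21Rik had -0.23 (SE 0.073), Cab39 0.06 (SE 0.051) and Itm2c -0.03 (SE 0.076).

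**Figure D4:**
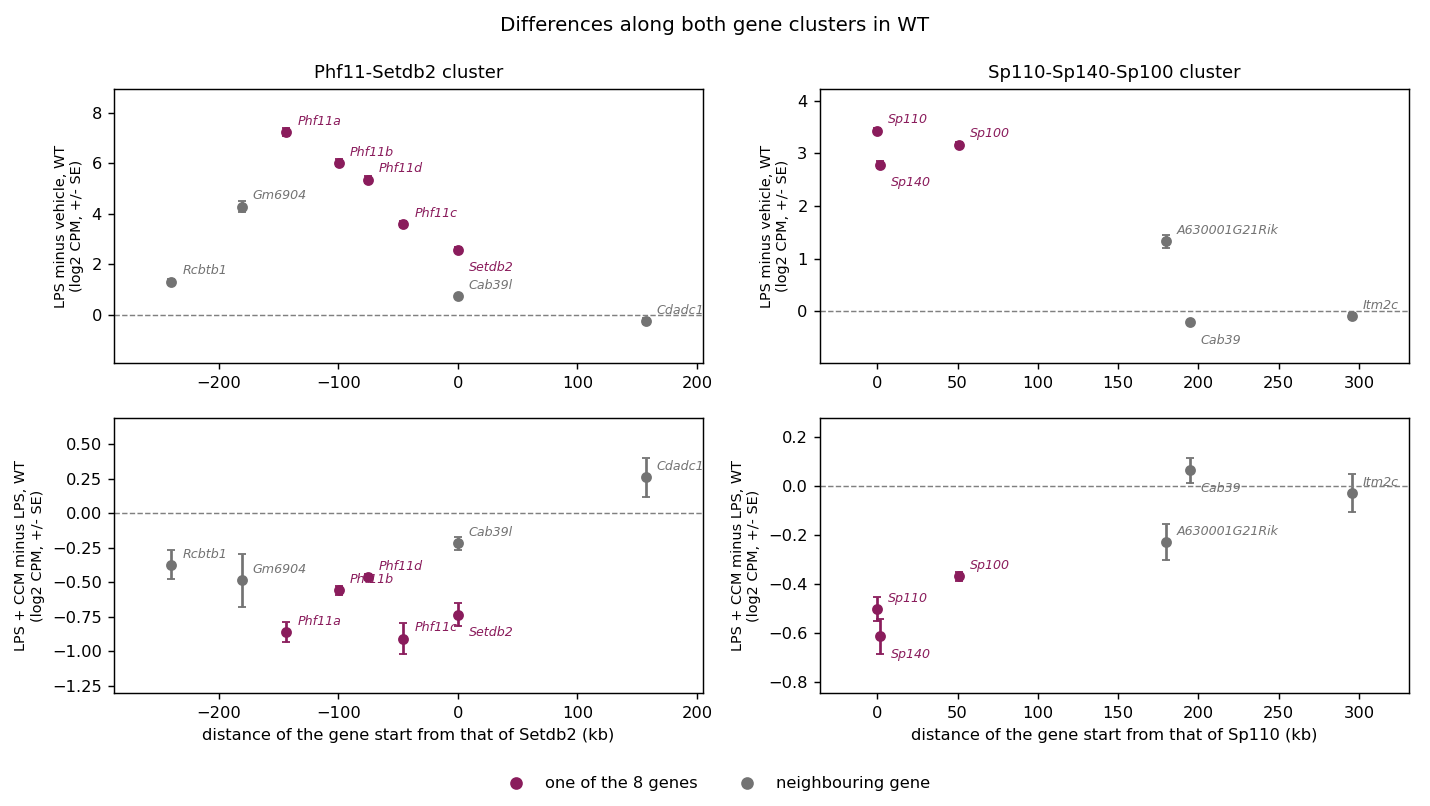
The log2 CPM difference with its SE (WT, n = 3 per group) is plotted against the distance of the gene start from that of Setdb2 (left) or Sp110 (right) in kb, for LPS (top) and for CCM under LPS (bottom), with the 8 genes in purple and protein-coding neighbours in grey, Atp8a2 left out. The LPS difference peaks at Phf11a and is smaller towards Setdb2 and Cab39l, and that of Cab39 and Itm2c lies near 0.

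Some of the counts could be shared between genes. Of the 100-base windows of the longest transcript, 8.13% for Phf11a, 13.8% for Phf11b, 5.86% for Phf11c and 6.3% for Phf11d also occur in a transcript of another gene, mostly of each other. The share was 0% for Setdb2 and 3.78% for Sp100, but 27.7% for Sp110 and 33.7% for Sp140. The antisense gene Gm17017 covers 26.4% of the exonic bases of Sp140, and the sources used here do not say whether counting used strand. With at most 2.09 CPM on average in WT, Gm17017 was counted far below Sp140 at 137 CPM with LPS. How reads on both genes were counted is not known, so this level does not limit the effect of the overlap on Sp140. The values of Phf11a, Phf11b, Phf11c, Phf11d, Sp100, Sp110 and Sp140 are uncertain to the extent that reads were shared. Phf11c shares windows mostly with Phf11d, and with LPS in WT the means were 12.4 CPM for Phf11c and 312 CPM for Phf11d. A small part of the Phf11d reads would thus weigh heavily on Phf11c. How far shared reads enter the Phf11c values, among them its LPS ratio and its interaction, was not tested.

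The genes most like each of the 8 across the 36 libraries were named by Pearson's r of log2 CPM, which here follows mainly the LPS difference that all share. Phf11a was most like Iigp1 (r = 0.995), an interferon-induced GTPase, and Phf11b was most like Ifi47 (0.998), another of that kind. Phf11d was most like Ifi211 (0.998) and Phf11c most like Apobec3 (0.983), a cytidine deaminase that restricts retroviruses. Sp100 was most like Parp9 (0.998), Sp110 like Slfn5 (0.998) and Sp140 like Samhd1 (0.996), with Daxx, a component of PML nuclear bodies, second for Sp140 (0.994).

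Setdb2 was less like the other 7 over all libraries. Its most similar genes were Sec24b (0.992), Resf1 (0.990) and Rap2c (0.989). Its r with the other 7 genes was 0.855 to 0.934, whereas the r of Phf11b with Phf11d was 0.996 and that of Phf11b with Sp110 0.995. Phf11c came next, with r from 0.938 (Phf11a) to 0.967 (Sp100) outside Setdb2. Without the 4 libraries of KO replicate 6, the r of Setdb2 with the other 7 genes was 0.955 to 0.986 over 32 libraries. These correlations share libraries and are descriptions.

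The pathways around the 8 genes were followed in 3 lists. Of 13 interferon signalling genes, from the ligand Ifnb1 through the receptor chains and Jak1 to Irf7, 0 passed in any of the 4 edgeR comparisons. Without LPS 12 of the 13 could be tested, Ifnb1 having been filtered out. The lowest edgeR adjusted p of the list for CCM under LPS in KO was 0.141. Of 14 PML nuclear body genes and 14 genes of histone H3 lysine 9 methylation, again 0 passed, with lowest edgeR adjusted p of 0.0662 and 0.557 in that comparison. Over all genes 0.112% passed in that comparison and 0% in the others, so nothing is read from these counts.

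The median LPS difference in WT was 3.10 for the interferon signalling list, 0.37 for the PML list and -0.35 for the lysine 9 methylation list. For CCM under LPS in WT the medians were -0.32, -0.05 and 0.13. In KO they were -0.38, -0.19 and -0.02 for that comparison. The partners differed within a list. Among genes named after their values were seen, Pml had an LPS difference of 2.66 (SE 0.075) and Daxx of 3.24 (SE 0.063), while Setdb1, the best known relative of Setdb2, had -0.34 (SE 0.071). Ifnb1, the interferon β gene, had -1.92 (SE 0.26) for CCM under LPS in WT and -1.26 (SE 0.37, edgeR adjusted p = 0.271) in KO.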

How the data were processed

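Poly(A) RNA of 36 BMDM libraries was sequenced as paired ends. Per the labels and the study's methods, the authors trimmed reads with fastp, aligned them to mm10 with HISAT2 2.0.5 and used featureCounts 1.5.0-p3 to count the pairs on each gene. The deposited values are these raw counts, with gene positions and lengths. Each of the 36 columns of counts entered the analysis. Strand and multi-mapping settings are not given in the sources used here. The authors tested pairs of groups with DESeq2.

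Genes were filtered with filterByExpr, scaled by TMM and tested with edgeR 4.0.16 in R 4.3.3 (glmQLFit, glmQLFTest, no block), each comparison on its own 2 groups, with Benjamini-Hochberg adjustment over all genes at 0.05. Tests were two-sided. LPS contrasts, interactions and WT CCM contrasts were described by mean log2 CPM (prior count 2) over 15720 genes kept, with SE from the libraries. The members and lists were chosen with earlier results of these data known. All 8 genes passed the filter of every main fit. Phf11a was filtered out for CCM without LPS in KO when replicate 2 or replicate 4 was left out. The text names these 8, the 3 genes most like each, kept neighbours within 200000 bases, and list genes that passed, of which there were 0. Pml, Daxx, Setdb1 and Ifnb1 were named after their values were seen. The tests were run on simulated counts with known fold changes, as a check that these were recovered. The simulation held no outlying replicate and no pairing, so it does not check the calls made here. The study counts n as mice, but the labels do not say which libraries came from the same mouse. The spread between libraries exceeded counting noise in all 72 pairs (the lowest chi-square divided by its degrees of freedom was 4.34).

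Same-numbered libraries were checked for pairing by correlating how each departed from its group mean. The correlation was 0.259 to 0.795 for CCM in unstimulated KO, 0.245 to 0.762 for LPS in KO and 0.122 to 0.283 for CCM under LPS in WT, so these were taken as paired in the replicate block. Between libraries of other numbers the medians were 0.170, 0.121 and -0.111 in the same order, so in KO these also lay above 0. In CCM under LPS in KO the same-numbered correlation was -0.056 to 0.719, with a median of -0.0037 between libraries of other numbers. Its libraries were not taken as paired because of the lowest value, which does not show that they are unpaired. The main tests used no block, also where libraries were taken as paired, so their calls depend on this choice. Each replicate was left out in turn, and a replicate block, RLE scaling, a fit of all 36 libraries, a filter that kept every gene with a count, a prior count of 0.5 and DESeq2 1.42.0 were tried. Total counts without TMM were added after seeing the data. Promoter sequences are from RefSeq (GRCm38.p6), and transcripts and positions from GENCODE (GRCm38).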

Additional observations from a re-analysis of the deposited data

Results flagged for a closer look

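In the 32 groups of 6 KO libraries (8 genes, 4 treatments), 8 had 1 library farther from the rest than Dixon's 95% limit allows. These groups reuse the same libraries, and the share flagged over all genes was not counted. Nothing is therefore read from the number flagged. Of the 8 flagged libraries, 6 were KO replicate 6, in which 24.1% of all genes kept had their lowest KO level in every treatment. Setdb2 was at 3.14 CPM in it with vehicle (next lowest 8.12), at 2.11 CPM with CCM (next 7.96) and at 17.8 CPM with LPS (next 43.5). Sp100 was at 33.0 CPM with vehicle (next 44.1), at 26.7 CPM with CCM (next 39.3) and at 274 CPM with LPS (next 405). Phf11a in KO replicate 2 with vehicle was high at 0.846 CPM (next 0.563), and Sp110 in KO replicate 4 with CCM was high at 23.4 CPM (next 20.4).

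The CCM differences of Setdb2 in WT had opposite signs with and without LPS. The ratio of mean CPM was 0.601 with LPS, where every CCM library lay under every library without it, and 1.16 without LPS, where every CCM library lay above the vehicle libraries. In KO the mean with CCM was 56.9% of that without it under LPS and 93.1% without LPS. The interaction of LPS and CCM is among the values that chose the group, so the difference between these ratios was not tested.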

How the results depend on the processing

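For CCM under LPS in KO, 1 of the 8 genes passed in the main fit. This number became 6 with DESeq2, where 1.28% of all genes passed. With all 36 libraries in 1 fit it became 5, without Phf11a, where 1.81% of all genes passed. It became 0 with no filter beyond 1 count (0.0371% of all genes) and 0 with total counts alone (0.0822%). When 1 replicate was left out it was 8 without replicate 6 (1.27% of all genes) and 0 without any other (at most 0.0522%). With the replicate block, in which same-numbered libraries are paired, all 8 passed, as did 5.8% of all genes. Those libraries were not taken as paired, since their lowest correlation was -0.056. RLE size factors kept the number of the 8 genes that passed at 1, where 0.12% of all genes passed. For CCM without LPS in KO, DESeq2, the replicate block and all 36 libraries in 1 fit each called 1 gene, Phf11b, in place of 0, beside 0.146%, 3.11% and 0.0891% of all genes. The genotype comparisons called 0 of 8 under every alternative run, beside at most 0.00725% of all genes. Signs turned there, among values that never passed. With vehicle, Phf11b was -0.011 with total counts alone and -0.093 to 0.17 over the left-out replicates, Sp140 -0.042 and -0.013 to 0.053, and Setdb2 0.16 with the replicate block and -0.12 to 0.11. With LPS, Phf11b was -0.0029 with total counts alone, Sp110 -0.055 to 0.0054 over the left-out replicates, and with the replicate block Phf11d was 0.053, Setdb2 0.068, Sp100 0.0085, Sp110 0.044 and Sp140 0.046. Among the described differences, signs near 0 turned over the left-out replicates for the interaction of Phf11b (-0.06 to 0.13) and Phf11d (-0.044 to 0.22) in WT and of Phf11a in KO (-0.14 to 0.61), and for CCM without LPS in WT for Sp140 (-0.033 to 0.029, and also under other scaling and filtering). Total counts alone shifted the median of all genes for LPS to -0.45 in WT and -0.43 in KO, and the median of the 8 to 3.12 in WT and 3.01 in KO, to 2.64 and 2.74 for LPS in the presence of CCM, and to -0.50 for CCM under LPS in WT. In other alternatives the described medians moved by less than 1 SD, and a replicate block changed no other call. Low counts limit Phf11a and Phf11c without LPS.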
